A study of Mus musculus with 12 samples.

Results

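T and NK cell genes were measured in RNA of cells that had been sorted from mouse bone marrow as endothelial cells. The 10 genes were a chosen list matched by symbol to Ensembl identifiers: the CD3 chains *Cd3d*, *Cd3e* and *Cd3g*, the coreceptor gene *Cd8a*, the cytotoxic granule genes *Nkg7* and *Gzma*, the NK cell receptor genes *Klrk1* and *Ncr1*, the transcription factor *Tbx21* and the cytokine *Ifng*. All 10 were among the 55421 genes of the deposited count table and among the 15999 genes with enough counts to be tested. There were 12 libraries, each from 1 mouse, in 4 groups of 3. Naive controls, mice with hypertension and mice with MI were C57BL/6J, whereas the mice with atherosclerosis carried the *Apoe* tm1Unc null allele, which removes a protein that clears lipoproteins from blood. Hypertension was produced with angiotensin II from implanted osmotic minipumps, atherosclerosis by feeding the *Apoe*-deficient mice a western diet, and MI by permanent ligation of a coronary artery. The age given was 20 weeks, and the labels place the MI samples 2 days after infarction, where the text of the study names another day. Genotype and diet cannot be told apart in the atherosclerosis group, and the same 3 controls served in every comparison with disease.

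T cells recognize antigen through a receptor whose signal is carried into the cell by the CD3 chains, and CD8 marks the T cells that kill. NK cells kill without such a receptor, using activating receptors such as NKG2D, the product of *Klrk1*, and NKp46, the product of *Ncr1*. Both cell types load granules with proteases such as granzyme A, are programmed by the T-box factor T-bet encoded by *Tbx21*, and secrete interferon gamma, which activates macrophages and endothelium and acts on blood stem cells in the marrow.

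The promoters of 4 members are shown because the levels of these genes recur in the results: *Cd3d* as the CD3 chain with the most RNA per length, *Gzma* as the member with the smallest p in a comparison with controls, and *Ncr1* and *Tbx21* as NK cell genes that were lowest in the same library. Each sequence holds the 250 bases before the RefSeq start of the gene in GRCm38.p6, read 5′ to 3′ on the strand of the gene, and capitals mark matches on either strand to the T-box letters GTGTGA, the RUNX letters TGTGGT and the ETS letters ACTTCC.
Cd3d, chr9:44981536-44981785, plus strand: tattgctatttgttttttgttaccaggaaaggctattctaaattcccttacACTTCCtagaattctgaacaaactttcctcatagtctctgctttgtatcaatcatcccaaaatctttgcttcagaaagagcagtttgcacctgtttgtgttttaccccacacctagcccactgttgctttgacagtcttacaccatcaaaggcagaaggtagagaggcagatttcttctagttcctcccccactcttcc
Gzma, chr13:113100982-113101231, minus strand: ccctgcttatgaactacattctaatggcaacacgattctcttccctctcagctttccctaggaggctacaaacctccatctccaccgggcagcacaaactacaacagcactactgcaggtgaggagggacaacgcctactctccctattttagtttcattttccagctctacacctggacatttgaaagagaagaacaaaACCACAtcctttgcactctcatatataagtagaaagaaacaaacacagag
Ncr1, chr7:4337465-4337714, plus strand: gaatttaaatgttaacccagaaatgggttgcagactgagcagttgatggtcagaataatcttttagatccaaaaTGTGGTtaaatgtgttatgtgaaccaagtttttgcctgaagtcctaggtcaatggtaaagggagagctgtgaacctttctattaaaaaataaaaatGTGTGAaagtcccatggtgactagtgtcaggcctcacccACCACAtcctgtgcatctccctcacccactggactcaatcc
Tbx21, chr11:97115332-97115581, minus strand: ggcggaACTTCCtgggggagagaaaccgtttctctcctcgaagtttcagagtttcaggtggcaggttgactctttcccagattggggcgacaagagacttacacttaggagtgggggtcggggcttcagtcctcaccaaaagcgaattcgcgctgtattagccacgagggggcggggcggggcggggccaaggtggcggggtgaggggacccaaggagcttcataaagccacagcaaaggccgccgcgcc
*Ncr1* held 1 T-box match and 2 RUNX matches, *Gzma* 1 RUNX match, and *Cd3d* and *Tbx21* 1 ETS match each. Of 32851 RefSeq promoter windows of this length, 12.3% held GTGTGA, 14% held TGTGGT and 19.7% held ACTTCC on either strand, so single matches are common, and they are given only as a description of these letters.

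Total counts per library lay between 17007088 and 25136936, and 3 counts, the floor used here, amounted to 0.119 to 0.176 CPM (counts scaled to a library of fixed size). This floor covers counting error only. Levels are CPM scaled by TMM factors and are listed for replicates 2, 3 and 4 in that order, and differences are log2 fold changes from edgeR's quasi-likelihood test over all 12 libraries with Benjamini-Hochberg adjustment over the 15999 genes, where a gene was called at an adjusted p under 0.05. *Apoe*, the targeted gene, was at 781 ± 98.4 CPM in controls and 10.6 ± 3.81 in atherosclerosis (SD, n = 3 each). The sort had excluded cells carrying CD45 and taken cells bright for CD31, but *Ptprc*, which encodes CD45, reached a median of 31.6 CPM per kb of exon, against 3.25 for *Pecam1*, which encodes CD31, and 0.721 for *Cdh5*, which encodes VE-cadherin. Neutrophil genes (13) summed to 35100 to 92600 CPM and endothelial genes (24) to 206 to 383 CPM. The samples had also been depleted with antibodies that included CD4, CD8 and NK1.1. *Cd4* remained at a median of 6.53 CPM, *Cd8a* at 1.72 and *Klrb1c*, which encodes NK1.1, at 4.87. In bulk RNA, fewer cells of a type and less RNA per cell cannot be told apart.

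*Nkg7*, which encodes a granule membrane protein of cytotoxic lymphocytes, dominated the list. It held 85% to 93.8% of the members' summed CPM in every library. Per exonic length its median over 12 libraries was 523 CPM per kb, followed by *Gzma* at 9.77, *Cd3d* at 4.21, *Ncr1* at 3.27, *Cd3g* at 2.04, *Klrk1* at 1.84, *Tbx21* at 1.32, *Ifng* at 0.553, *Cd8a* at 0.474 and *Cd3e* at 0.405. *Nkg7* stood above *Gzma*, *Gzma* above *Cd3d*, *Cd3d* above *Ncr1*, and *Tbx21* above *Ifng* in 12 of 12 libraries, and *Ncr1* above *Cd3g* and *Klrk1* above *Tbx21* in 11 of 12. The order of the neighbours *Cd3g* and *Klrk1* held in only 7 libraries, that of *Ifng* and *Cd8a* in 6 and that of *Cd8a* and *Cd3e* in 5, so these pairs did not differ beyond the spread between libraries. Over the 12 libraries the log2 level of *Nkg7* had a Pearson's r of 0.55 with *Cd3g*, 0.53 with *Cd3d*, 0.5 with *Gzma* and between -0.32 and 0.22 with the other members. With marker sums, *Nkg7* had an r of 0.32 with the summed NK cell markers, -0.33 with the T cell markers and 0.69 with the neutrophil markers. Without the 2 libraries farthest from the median of each sum, the values for the sums became 0.07, -0.38 and 0.38, and Spearman's rho over all libraries was 0.27, -0.29 and 0.7. These are descriptions over libraries that share groups and depth, and *Nkg7* was chosen for them after its values were seen.

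**Figure D1:**
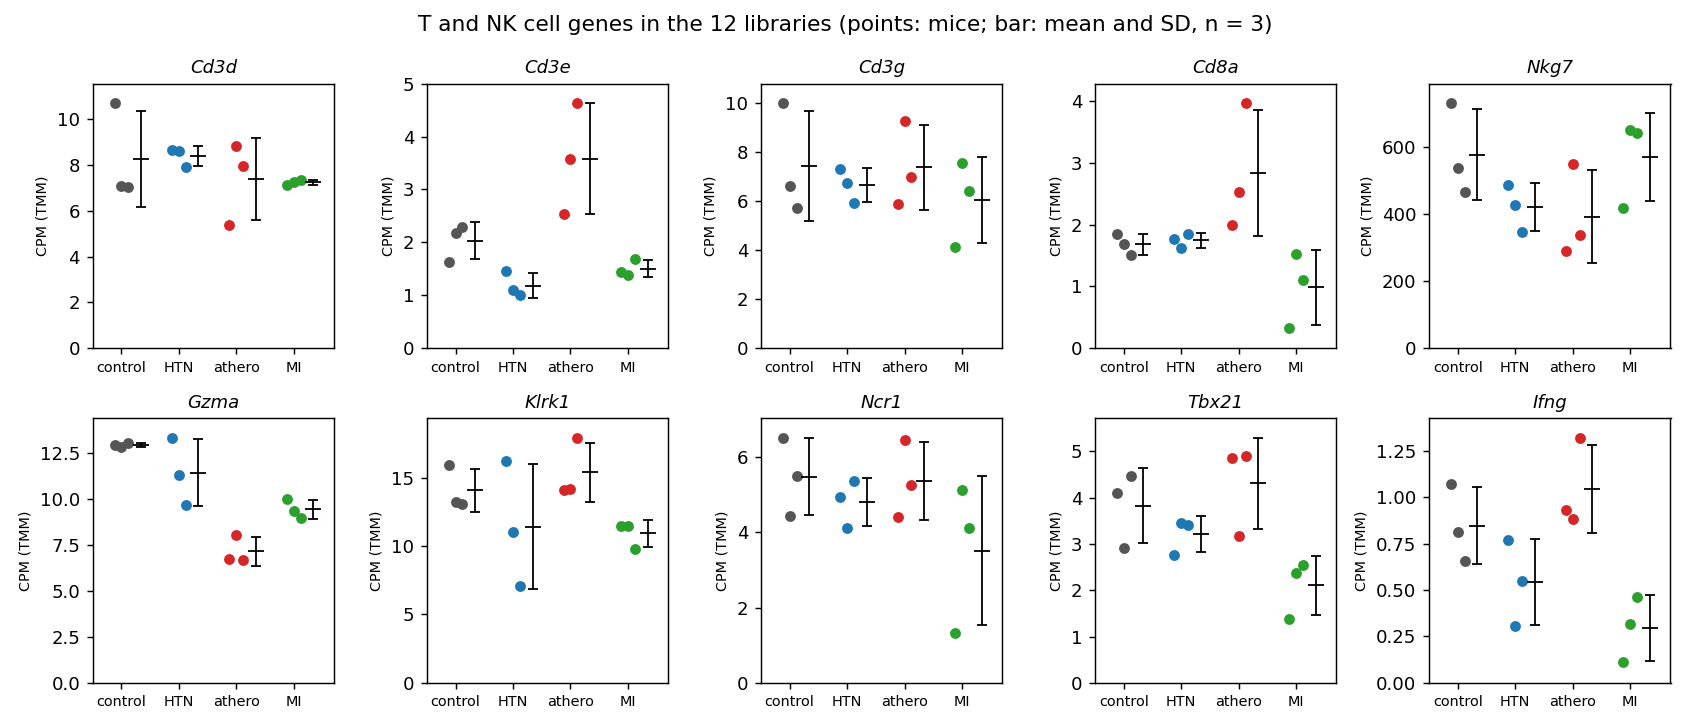
Level of each of the 10 genes in the 12 libraries, as TMM-normalized CPM on axes that start at 0, for controls, hypertension (HTN), atherosclerosis (athero) and MI. Points are single mice in the order of replicates 2, 3 and 4, and bars give the mean and SD of 3; the 3 *Gzma* control points lie between 12.8 and 13 CPM, above all atherosclerosis and MI points.

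None of the 10 members passed the threshold in any comparison with controls. In hypertension, 0 of 10 were called, where the background over all tested genes was 0%. In atherosclerosis, 0 of 10 were called against a background of 0.144%, and after MI 0 of 10 against 0%. Without adjustment, edgeR's p was under 0.05 for 1 member in hypertension (*Cd3e*, lower), 2 in atherosclerosis (*Cd3e* higher, *Gzma* lower) and 3 after MI (*Gzma*, *Tbx21* and *Ifng*, all lower). Over all tested genes, the shares with such a p were 3.71%, 5.97% and 2.8%.

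The numbers of members with a lower or higher fitted level are given for each disease, although no single difference was called. After MI, 10 of 10 members had a lower fitted level than controls, with a median log2 difference of -0.45 against 0 over all tested genes, 50% of which were lower. In hypertension 8 of 10 were lower, with a median of -0.22 against -0.01 and 51.9% of all genes lower. In atherosclerosis 5 were higher and 5 lower, with a median of 0.06 against 0.01 and 51.9% of all genes higher. The members share libraries and partly cells, so these counts are not independent observations. The number lower after MI was 8 without control replicate 2 and 9 without MI replicate 2. In hypertension it ran from 7 without control replicate 2 to 10 without control replicate 4, and in atherosclerosis the number higher was 8 without control replicate 2 or atherosclerosis replicate 2.

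**Figure D2:**
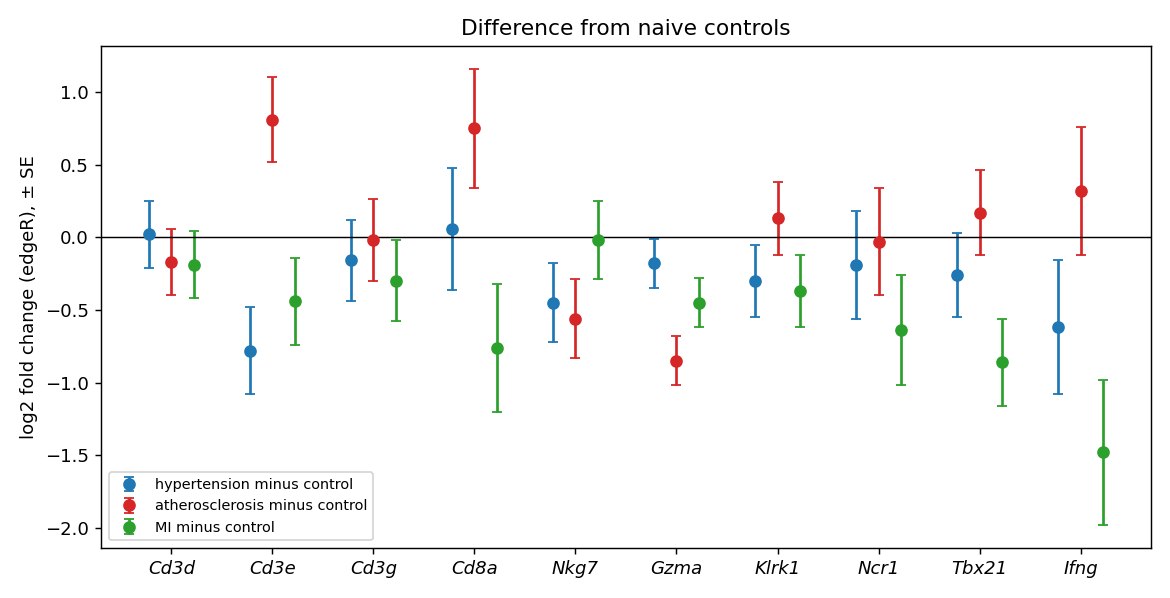
Fitted log2 fold change of each gene in hypertension, atherosclerosis and MI, each minus the same 3 controls; points are edgeR estimates and bars their standard errors. All MI estimates lie below 0, from -1.48 for *Ifng* to -0.02 for *Nkg7*, and *Cd3e* lies at 0.81 in atherosclerosis and at -0.78 in hypertension.

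Among the receptor chains, *Cd3e* differed most. This gene encodes the epsilon chain, which pairs with both other chains in the receptor complex. *Cd3e* was at 1.63, 2.17 and 2.29 CPM in controls, 1.45, 1.09 and 1 in hypertension, 2.54, 3.58 and 4.63 in atherosclerosis, and 1.44, 1.38 and 1.68 after MI. Every hypertension library lay below and every atherosclerosis library above every control, while the MI group overlapped controls. The log2 difference from controls was -0.78 ± 0.30 (SE) in hypertension, with an adjusted p of 0.951 in edgeR's quasi-likelihood test, 0.81 ± 0.29 in atherosclerosis (adjusted p = 0.688) and -0.44 ± 0.30 after MI (adjusted p = 1). Set against each other in the same model, atherosclerosis and hypertension differed by 1.59 ± 0.30 for *Cd3e* (adjusted p = 0.105), and atherosclerosis and MI by 1.26 ± 0.30 (adjusted p = 0.102). The first of these was called by edgeR's likelihood-ratio test (adjusted p = 0.00223) and DESeq2 (0.00215), and the second likewise (0.0214 and 0.0197). Without atherosclerosis replicate 2 both passed in the quasi-likelihood test, at adjusted p values of 0.0332 and 0.0492.

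The other CD3 chains did not follow *Cd3e*. *Cd3d*, the delta chain, was at 10.7, 7.09 and 7.02 CPM in controls, 8.67, 8.63 and 7.91 in hypertension, 5.38, 8.81 and 7.95 in atherosclerosis, and 7.12, 7.25 and 7.36 after MI. *Cd3g*, the gamma chain, was at 10, 6.61 and 5.74 CPM in controls, 7.31, 6.74 and 5.91 in hypertension, 5.87, 9.28 and 6.98 in atherosclerosis, and 4.14, 7.57 and 6.43 after MI. For both genes each disease group overlapped controls, and the log2 differences of *Cd3d* and *Cd3g* lay between -0.30 and 0.02, none called by edgeR's quasi-likelihood test. The 3 genes lie within 40.1 kb on chromosome 9 (GRCm38), *Cd3g* from 44969572 to 44980431, *Cd3d* from 44981786 to 44987339 and *Cd3e* from 44998740 to 45009627. Their log2 levels had a Pearson's r over the 12 libraries of 0.66 for *Cd3d* with *Cd3g*, -0.15 for *Cd3d* with *Cd3e* and 0.23 for *Cd3e* with *Cd3g*. Per exonic length, *Cd3d* exceeded *Cd3e* by 6.9 to 14.8 times in controls, 13.4 to 17.8 in hypertension, 9.84 to 11.8 after MI and 3.85 to 5.53 in atherosclerosis. The atherosclerosis range of this ratio lay below that of every other group. Exons of *Cd3e* share 135 bases with the antisense gene *Gm48719*, which held 1 count over the 12 libraries. Which strand column of the counter was deposited is not given in the sources used here, so antisense reads could be counted with *Cd3e*.

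**Figure D3:**
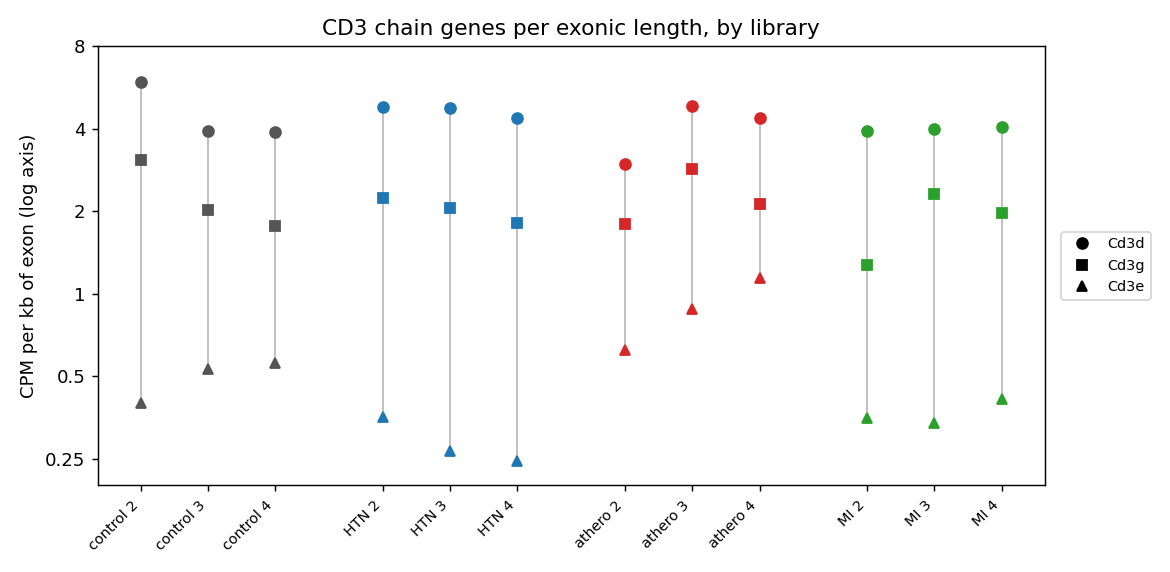
Level of *Cd3d* (circles), *Cd3g* (squares) and *Cd3e* (triangles) per kb of exon in each of the 12 libraries, on a log axis, with a line joining the 3 genes of a library. The distance from *Cd3d* to *Cd3e* is smallest in the 3 atherosclerosis libraries, where the ratio was 3.85 to 5.53.

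The level of *Cd3e* had a higher correlation with the summed stem and progenitor markers than with the summed T cell markers across the libraries. Its log2 level had a Pearson's r of 0.9 with the summed stem and progenitor markers (Spearman's rho 0.92, r 0.85 without the 2 libraries farthest from the median of the sum). It was 0.78 with the plasmacytoid dendritic cell markers (rho 0.74, r 0.76) and 0.48 with the other T cell markers (rho 0.38, r 0.41). These are 3 of 13 lists examined for *Cd3e* over 12 libraries that share groups and depth, and they were singled out after their values were seen. The T cell sum mostly follows *Lat*, at a median of 45.1 CPM over the libraries, and *Lck*, at 33.6. Its r with *Cd3e* therefore says little about the other T cell genes. The stem and progenitor sum lay between 169 and 193 CPM in hypertension, below the 207 to 213 of controls, and reached 206 to 272 in atherosclerosis and 199 to 206 after MI. The part of these cells in the *Cd3e* difference was not tested.

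*Cd8a*, the coreceptor of killer T cells, was at 1.85, 1.68 and 1.51 CPM in controls, 1.77, 1.62 and 1.85 in hypertension, 2, 2.53 and 3.97 in atherosclerosis, and 0.331, 1.53 and 1.1 after MI. All atherosclerosis libraries lay above the controls, with a log2 difference of 0.75 ± 0.41 (SE), and the MI group overlapped controls only through 1 library, with a difference of -0.76 ± 0.44. Neither passed in edgeR's quasi-likelihood test (adjusted p = 0.86 and 1). The difference of *Cd8a* after MI was -0.34 without MI replicate 2 and -1.23 without MI replicate 3, and that in atherosclerosis was 0.43 without atherosclerosis replicate 4. Between atherosclerosis and MI the difference of *Cd8a* was 1.51 ± 0.43 (adjusted p = 0.181), which edgeR's likelihood-ratio test called (adjusted p = 0.039) and DESeq2 also (0.0364).

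Of the granule genes, *Gzma* gave the smallest p of any member against controls. Granzyme A is a serine protease released into target cells. *Gzma* was at 12.9, 12.8 and 13 CPM in controls, 13.3, 11.3 and 9.66 in hypertension, 6.72, 8.05 and 6.67 in atherosclerosis, and 9.99, 9.31 and 8.98 after MI. The atherosclerosis and MI libraries all lay below the controls, which lay between 12.8 and 13 CPM. In atherosclerosis the mean was 7.14 ± 0.781 CPM against 12.9 ± 0.0816 in controls (SD, n = 3 each). The controls held 230, 237 and 335 counts, and counting error at such counts is larger than their SD, which therefore understates the spread. The log2 difference in atherosclerosis was -0.85 ± 0.17 (SE), with an unadjusted p of 0.000272 and an adjusted p of 0.114 in edgeR's quasi-likelihood test. The likelihood-ratio test (adjusted p = 0.0209) and DESeq2 (0.00219) called *Gzma* in atherosclerosis, and over all alternatives the adjusted p ran up to 0.465 while the difference stayed between -0.95 and -0.80. After MI the difference was -0.45 ± 0.17 (adjusted p = 1), and in hypertension it was -0.18 ± 0.17 (adjusted p = 0.951). An exact two-sided permutation test of single values cannot go below 0.1 with 3 mice against 3.

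*Nkg7* was at 732, 537 and 467 CPM in controls, 489, 429 and 348 in hypertension, 290, 551 and 338 in atherosclerosis, and 420, 653 and 642 after MI. All disease groups overlapped controls. The log2 difference of *Nkg7* was -0.45 ± 0.27 (SE) in hypertension, -0.56 ± 0.27 in atherosclerosis and -0.02 ± 0.27 after MI, with adjusted p values of 0.951, 0.848 and 1 in edgeR's quasi-likelihood test. Leaving out 1 library moved the difference of *Nkg7* between -0.58 and -0.25 in hypertension and between -0.88 and -0.36 in atherosclerosis, and the values nearest 0 were those without control replicate 2. Neutrophil markers summed to 38300 to 54900 CPM in hypertension, below the 60500 to 80000 of controls, and monocyte markers to 4620 to 6260 against 6550 to 8620. In atherosclerosis the neutrophil sum was 35100 to 69900 CPM and after MI 65400 to 92600. The part of these cells in the *Nkg7* values was not tested. *Nkg7* lies on the chromosome of *Apoe*, 23.7 Mb from it, and *Ncr1* 15.4 Mb from it on the other side.

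The NK cell receptor genes did not pass the test in any comparison with controls. *Klrk1*, which encodes NKG2D, was at 15.9, 13.2 and 13.1 CPM in controls, 16.2, 11 and 7.06 in hypertension, 14.1, 14.2 and 17.9 in atherosclerosis, and 11.5, 11.5 and 9.79 after MI. The MI libraries all lay below the controls (log2 difference -0.37 ± 0.25, SE), and the hypertension libraries spread over the widest range of any group. *Ncr1*, which encodes NKp46, was at 6.5, 4.44 and 5.51 CPM in controls, 4.95, 4.12 and 5.36 in hypertension, 4.4, 6.46 and 5.25 in atherosclerosis, and 1.32, 5.13 and 4.11 after MI. All disease groups overlapped controls. The log2 difference of *Ncr1* after MI was -0.64 ± 0.38 and -0.25 without MI replicate 2, which held the 1.32 CPM. For *Klrk1* and *Ncr1* no comparison with controls was called by edgeR's quasi-likelihood test, and the lowest adjusted p was 0.951.

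*Tbx21* and *Ifng*, the regulator and the cytokine, had the largest differences after MI. *Tbx21* was at 4.09, 2.92 and 4.46 CPM in controls, 2.77, 3.46 and 3.4 in hypertension, 4.85, 3.17 and 4.89 in atherosclerosis, and 1.38, 2.38 and 2.55 after MI. The MI libraries lay below the controls, with a log2 difference of -0.86 ± 0.30 (SE), an unadjusted p of 0.0123 and an adjusted p of 1 in edgeR's quasi-likelihood test. *Ifng* was near the limit of detection, with 19, 15 and 17 counts in controls, 17, 7 and 11 in hypertension, 21, 15 and 26 in atherosclerosis, and 2, 6 and 8 after MI. These counts correspond to 1.07, 0.812 and 0.659 CPM in controls and 0.11, 0.318 and 0.463 after MI, where the library with 2 counts is below the floor of 3. The MI libraries again lay below the controls, and the log2 difference of *Ifng* was -1.48 ± 0.50 (unadjusted p = 0.0113, adjusted p = 1), or -1.1 without MI replicate 2. Between atherosclerosis and MI, *Ifng* differed by 1.8 ± 0.50 (adjusted p = 0.166) and *Tbx21* by 1.03 ± 0.30 (adjusted p = 0.185). The likelihood-ratio test called *Ifng* there, with an adjusted p of 0.0297. Exons of *Ifng* share 336 bases with *Gm49751*, which held 0 counts.

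Counted by libraries that did not overlap, 4 members lay below all controls after MI (*Gzma*, *Klrk1*, *Tbx21* and *Ifng*), against a background of 4.59% of tested genes in that direction. Scaled by raw library totals the number after MI was 5. In atherosclerosis 2 lay above (*Cd3e* and *Cd8a*) and 1 below (*Gzma*), against 5.06% and 4.45%, and in hypertension 1 lay below (*Cd3e*), against 7.81%. Directly between diseases, 0 of 10 members were called for atherosclerosis against MI (background 0.269%), for atherosclerosis against hypertension (0.0625%) and for MI against hypertension (0%). Without adjustment, edgeR's p was under 0.05 for 5, 2 and 0 members, against 12.7%, 5.94% and 8.41% of all tested genes. Between atherosclerosis and MI, 8 members were higher in atherosclerosis, with a median log2 difference of 0.55 against 0.02 and 52.3% of all genes higher. There 5 members lay above all MI libraries and 1 below, against 7.44% and 6.23%. Between atherosclerosis and hypertension, 7 were higher, with a median of 0.29 against 0.03 and 54.6% of all genes higher, and 3 lay above and 1 below all hypertension libraries, against 5.81% and 5.08%. Between MI and hypertension, 8 were lower, with a median of -0.24 against 0.01 and 49.2% of all genes lower, and 3 lay below, against 10.2%.

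Part of the low values after MI came from a single mouse. MI replicate 2 held the lowest level of 5 of the 10 members, *Cd3g*, *Cd8a*, *Ncr1*, *Tbx21* and *Ifng*, and atherosclerosis replicate 4 the highest level of 5. Among the 12 libraries, MI replicate 2 also had the highest neutrophil sum, 92600 CPM, and the lowest B cell sum (221), basophil and mast cell sum (1100), plasmacytoid dendritic cell sum (418) and T cell sum (94.1). *Id2*, a regulator of innate lymphocytes that was singled out after its values were seen, was at 346 CPM in MI replicate 2 and at 43.1 to 112 in the other 11 libraries. The part of these differences in the low values was not tested. Of the 45 pairs of members, 7 had a Pearson's r over 0.7 across the 12 libraries, led by *Cd8a* with *Ncr1* at 0.86 and *Cd8a* with *Ifng* at 0.85. Without MI replicate 2, the values of *Cd8a* with *Ncr1* and of *Cd8a* with *Ifng* were 0.42 and 0.69. The 2 pairs over 0.7 were then *Cd3d* with *Cd3g* at 0.75 and *Cd3e* with *Ifng* at 0.73. Across the 12 libraries these 2 had been at 0.66 and 0.64, so none of the 7 pairs stayed over 0.7. The median over pairs across the 12 libraries was 0.35. The correlations are descriptions over libraries that share groups and depth.

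The marker lists of T and NK cells were compared with the members. Marker sums are CPM of raw library totals. Summed NK cell markers with the 3 members left out (9 genes) were at 32.8 to 38.6 CPM in controls, 24.6 to 26.2 after MI, 24.5 to 35.5 in hypertension and 24.4 to 32.9 in atherosclerosis. Summed T cell markers with the 4 members left out (12 genes) were at 107 to 145 CPM in controls, 81.9 to 120 after MI, 119 to 137 in hypertension and 133 to 191 in atherosclerosis. The largest parts of this T cell sum were *Lat*, at a median of 45.1 CPM over the libraries, and *Lck*, at 33.6. The next gene was *Trac* at 9.19, so the sum mostly follows *Lat* and *Lck*. The NK cell sum after MI lay below the controls in all 3 mice, whereas the T cell sums of every disease group overlapped those of controls. Every gene of both lists had counts in every library. Markers of other cell types also stood apart from controls in some groups. Plasmacytoid dendritic cell markers were at 614 to 716 CPM in controls, 418 to 552 after MI and 720 to 860 in atherosclerosis. In atherosclerosis, macrophage markers were at 967 to 1210 CPM against 630 to 789 in controls, and markers of type 2 innate lymphoid cells at 32 to 39.4 against 25.7 to 31.4. B cell markers were lower than controls in all 3 mice after MI, at 221 to 536 against 569 to 807 CPM, and overlapped controls in the other disease groups. Over the 12 libraries the log2 level of *Ifng* had a Pearson's r of 0.84 with the T cell sum (Spearman's rho 0.82, r 0.76 without the 2 farthest libraries). With the NK cell sum it was 0.63 (rho 0.64, r 0.6). For these values the sums included the members of each list. Of the 13 lists, plasmacytoid dendritic cell markers had the highest r with *Ifng*, 0.87 (rho 0.87, r 0.67). Type 2 innate lymphoid cell markers had 0.69 and B cell markers 0.68, while neutrophil, monocyte and erythroid markers had a negative r. These values are descriptions. The part of the cell makeup in the members' differences was not tested.

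**Figure D4:**
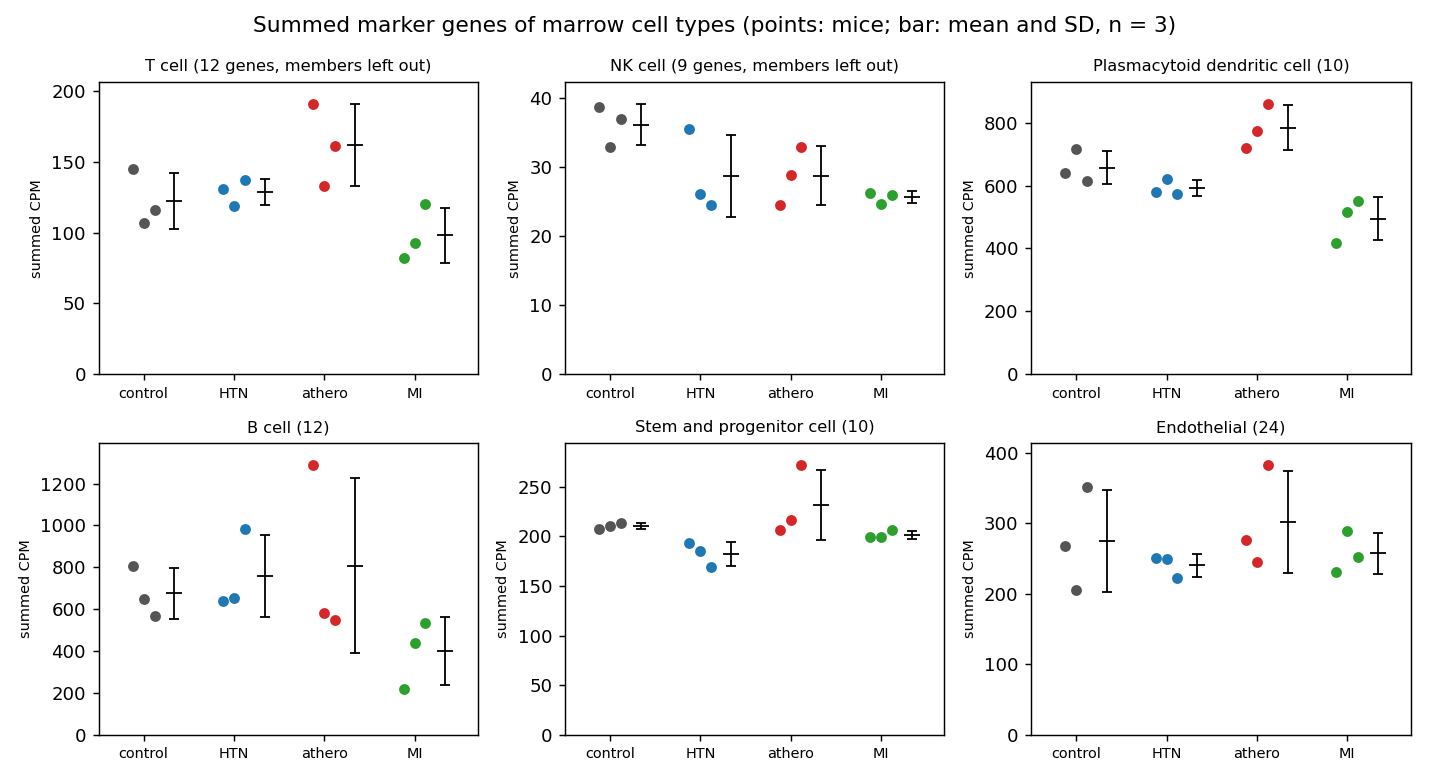
Summed CPM of marker genes of 6 cell types in each library, on axes that start at 0, with members of the gene list left out of the T and NK cell sums; points are single mice and bars the mean and SD of 3. NK cell markers after MI sit between 24.6 and 26.2 CPM, below the controls at 32.8 to 38.6, and plasmacytoid dendritic cell markers are also lower after MI.

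The wider pathways were read from 9 gene lists, some of which contain members. Over all tested genes, 51.9% were lower in hypertension, 48.1% in atherosclerosis and 50% after MI. These shares are the background for the direction counts of every list. The counts of the lists were not repeated with libraries left out. T cell receptor and coreceptor genes (21, of which 4 are members) were higher in atherosclerosis for 17 and lower for 4, with a median log2 difference of 0.35 against 0.01 over all genes, and lower after MI for 18. None was called. *Pdcd1*, which encodes the inhibitory receptor PD-1, had the smallest p of this list, with 13, 19 and 37 counts in atherosclerosis and 3, 6 and 10 in controls, a difference of 1.96 ± 0.67 (SE, adjusted p = 0.652 in edgeR's quasi-likelihood test). Without the low-count filter *Pdcd1* was called, with an adjusted p of 0.0305. Of 16 receptor signaling genes, 13 were higher in atherosclerosis and 14 lower after MI. *Fyn*, a kinase of the Src family, was at 44.5, 45 and 46.5 CPM in controls, 62.1, 58.4 and 63.5 in atherosclerosis and 30.7, 35.3 and 37.1 after MI. These 3 groups did not overlap. *Fyn* differed from controls by 0.44 ± 0.12 in atherosclerosis (adjusted p = 0.41) and by -0.40 ± 0.12 after MI (adjusted p = 1), and it passed between atherosclerosis and MI in edgeR's quasi-likelihood test (adjusted p = 0.0152).

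Granule genes (14 tested of 16, 2 of them members) were split in atherosclerosis, 6 higher and 8 lower, and 11 were lower after MI, with *Gzma* first by p in both. NK cell receptors and adaptors (26 tested of 27, the members *Klrk1* and *Ncr1* among them) were lower for 20 in hypertension, 14 in atherosclerosis and 21 after MI. None was called. *Cd244a*, which encodes the NK cell receptor 2B4, went the other way after MI, at 21.9, 13.2 and 19.9 CPM against 12.7, 12.3 and 10.1 in controls (log2 difference 0.65 ± 0.20, edgeR's adjusted p = 1). Of 16 tested transcription factors, the member *Tbx21* among them, 13 were higher in atherosclerosis and 11 lower after MI. *Eomes*, the T-box relative of *Tbx21*, was at 2.43, 2.65 and 2.72 CPM after MI against 3.92, 4.33 and 4.46 in controls. Its libraries did not overlap, and the difference of *Eomes* was -0.71 ± 0.23 (edgeR's adjusted p = 1).

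The interferon gamma list held *Ifng* itself with inducers, receptors and signaling genes. Of its 20 tested genes, 13 were lower after MI, 16 lower in hypertension and 14 higher in atherosclerosis, with none called. Among 13 tested genes that interferon gamma is known to induce, *Cd274* rose in atherosclerosis and was the only gene of the 9 lists called in a comparison with controls. *Cd274* encodes PD-L1, the ligand of PD-1, and was at 18.9, 11.3 and 12.9 CPM in atherosclerosis, 5.33, 5.9 and 5.51 in controls, 6.04, 6.52 and 7.86 in hypertension and 3.53, 5.56 and 4.46 after MI. The log2 difference in atherosclerosis was 1.37 ± 0.24 (SE, edgeR's quasi-likelihood test, adjusted p = 0.0472). This call on *Cd274* was lost without any 1 of the 6 libraries, at adjusted p values of 0.0671 to 0.239, and with the fit to only the 2 groups (0.264). Of 14 alternatives, 6 kept the call, with the lowest adjusted p in DESeq2 (5.17e-05). *Cd274* was also called between atherosclerosis and MI by edgeR's quasi-likelihood test (adjusted p = 0.0124). Of the other induced genes, 8 were higher and 4 lower in atherosclerosis and none was called. Of 8 NKG2D ligand genes, 3 were not analysed here and 2 of the remaining 5 had enough counts to be tested. Among the tested genes, *Ulbp1* was at 17.2, 15.2 and 14.1 CPM in controls and 15.2, 12.5 and 11 in hypertension (-0.27 ± 0.18, edgeR's adjusted p = 0.951).

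Lymphocyte chemokines and homing receptors were lower after MI for 12 of 12 genes, with a median log2 difference of -0.62 against 0 over all genes, and for 7 of them all MI libraries lay below all controls, where the background was 4.59%. None was called.

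The genes whose log2 levels followed the mean of the members most closely over the 12 libraries were *Ikbip* (Pearson's r = 0.932), *Gm35035* (0.929), *Dapk1* (0.92), *Gem* (0.915) and *Prmt2* (0.91). Without MI replicate 2 and control replicate 2, the libraries farthest from the median, these were 0.816, 0.81, 0.879, 0.803 and 0.783. For *Ifng* alone they included *Ift122* (0.934), *Rasgrp1* (0.911), *Samd3* (0.896) and *Zfp760* (0.881), and without MI replicate 2 and hypertension replicate 3 they were 0.864, 0.892, 0.844 and 0.826. These are among the highest of 15999 genes and serve as a description only.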

How the data were processed

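RNA of cells sorted as bone marrow endothelial cells was sequenced for 12 mice as strand-specific libraries of polyadenylated RNA. The authors aligned single-end reads to GRCm38.p6 with STAR 2.7.3a, counted them per Ensembl gene and deposited the raw counts, with no normalization. Which strand column was taken is not given in the sources used here. Groups and replicate numbers came from the labels, and each column was matched to its mouse by its title.

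Counts were analysed in R 4.3.3 with edgeR 4.0.16: filterByExpr (minimum count 10), TMM scaling, 1 coefficient per group over 12 libraries (8 residual degrees of freedom, common dispersion 0.0634), quasi-likelihood tests, two-sided, Benjamini-Hochberg adjustment over 15999 genes. Each standard error is the absolute log2 fold change over the root of its F statistic. CPM per kb used exonic lengths of GENCODE M21. The steps were tested on simulated data. The alternatives were edgeR's likelihood-ratio test, which the study used, DESeq2 1.42.0, other scaling and filters, only 2 groups, the replicate block, removal of hemoglobin and immunoglobulin genes, and each library left out.

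The members and all lists were chosen with earlier results of these data known. Named genes are the 10 members, list genes called against controls or else the gene with the smallest p of each list, the 5 genes most like the members' mean and *Ifng*, *Apoe*, *Cdh5* and *Pecam1*. Some genes that this rule names are not reported here. Genes named beyond these, and the alternatives for list genes, were chosen after their values were seen. Promoter sequences are from RefSeq, and all 10 members matched.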

Additional observations from a re-analysis of the deposited data

How the results depend on the processing

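No member was called against controls under any alternative except *Gzma* in atherosclerosis, where the likelihood-ratio test and DESeq2 each called 1 member. For atherosclerosis against MI these tests called 3 and 2 members and the fit with no low-count filter 2, and for atherosclerosis against hypertension each of the 3 called 1. Leaving out each library gave 0 to 1 member in both of these comparisons and 0 elsewhere. Over all genes, 23 were called in atherosclerosis, against 81 by the likelihood-ratio test, 81 by DESeq2, 432 with no low-count filter, 4 with only the 2 groups and 2 to 34 with each library left out. After MI, where the quasi-likelihood test called 0 genes and 448 had an unadjusted p under 0.05, the likelihood-ratio test called 1, DESeq2 1, no filter 130 and only the 2 groups 1. In hypertension it called 0 (594 with an unadjusted p under 0.05), and no filter gave 170. The cause of these changes was not tested. Whether the replicate numbers pair the mice is not settled here. Deviations of same-numbered libraries from their group means correlated between -0.282 and 0.296, with 5 of 18 pairs over 0.1. Libraries with different numbers correlated between -0.299 and 0.39, and pairs over 0.1 were found among them as well. The pairs over 0.1 are therefore no sign of pairing by number. Such values, from 3 libraries per group, cannot show whether only some groups shared a batch. With the replicate number as a block, 7 genes were called in atherosclerosis, no member was called and *Cd274* was lost (adjusted p = 0.12).

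Signs turned only when a library was left out, for members that were not called. *Cd3d* ran from -0.29 to 0.04 after MI, -0.31 to 0.06 in atherosclerosis and -0.08 to 0.25 in hypertension. *Cd3g* ran from -0.21 to 0.25 in atherosclerosis and -0.32 to 0.11 in hypertension, *Cd8a* from -0.01 to 0.13 in hypertension, *Ncr1* from -0.19 to 0.10 in atherosclerosis and *Nkg7* from -0.14 to 0.19 after MI. Requiring 10 counts in every library left 8 members. Each library came from its own mouse. The main fit pooled the spread between mice over the 4 groups, with 8 residual degrees of freedom. Its p values therefore do not rest on the 3 mice of a group alone. The lowest counts of a member in a library were 2 for *Ifng* and 6 for *Cd8a*, and no limit of detection for differences was computed.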
